A study of Mus musculus with 4 samples.

Results

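Abcg2, Aldh1a1 and Aldh2 are genes whose products are used as handles to isolate adult stem cells, and their transcripts were examined in muscle-derived stem cells (MDSCs) of 4 mouse types. The members were the spots that carry these 3 symbols on a SABiosciences mouse stem cell oligo membrane, out of its 268 genes, and each had 1 spot. There was 1 array for each MDSC type. WT came from wild-type mice, Mst KO from Mst-/- mice that lack myostatin, mdx from 10ScSn-Dmdmdx mice that lack dystrophin, and Oct4 transgenic from mice that the series describes as carrying the OCT4 promoter plus a reporter. All donors were male, and C57BL/6J is given as the background strain of all 4 types. The mdx genotype label also names 10ScSn, so a match of strain between mdx and WT is not certain. The labels give no age, and the study's methods give an age range for WT and Mst KO donors only. For all 4 types, the cells were prepared from hind limb muscle by preplating, which separates slowly adhering cells, and were grown in medium with 20% fetal bovine serum. By the study's methods, cells of WT and Mst KO that carried the surface marker Sca1 were also selected with antibody-coated beads. The study's methods do not describe the Oct4 transgenic mice, and the labels do not name the reporter. By the study's methods each array was hybridized to pooled RNA from 3 flasks, so no spread between cultures is known and no p values were computed.

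Abcg2 is an ATP-driven efflux pump of the plasma membrane that exports Hoechst dye, and the dye-poor cells it produces are collected by flow cytometry as the side population. Aldh1a1 is a cytosolic aldehyde dehydrogenase that oxidizes retinaldehyde to retinoic acid, the ligand of the retinoic acid receptors. Aldh2 is a mitochondrial aldehyde dehydrogenase that oxidizes acetaldehyde and reactive aldehydes formed by lipid peroxidation. Cells with high aldehyde dehydrogenase activity can be sorted with a fluorescent substrate, and both side population cells and cells with high activity of this kind have been collected from skeletal muscle. The array measured transcripts only, and neither dye export nor enzyme activity was measured.

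The upstream sequences are shown here because Abcg2 and Aldh1a1 were both highest on the Oct4 transgenic array in the deposited values. RefSeq windows of the mouse build GRCm38.p6 were matched for 2 of the 3 members, with 3 windows for Abcg2 and 2 for Aldh1a1. The first sequence lies at chr19:20601718-20601967 on the plus strand, and the second at chr6:58640296-58640545 on the plus strand. Each shows the 250 bases before an annotated gene start, 5′ to 3′. Capitals mark the octamer ATGCAAAT, the class of site that POU factors bind, and the GC box GGGCGG, each searched on both strands.
Aldh1a1: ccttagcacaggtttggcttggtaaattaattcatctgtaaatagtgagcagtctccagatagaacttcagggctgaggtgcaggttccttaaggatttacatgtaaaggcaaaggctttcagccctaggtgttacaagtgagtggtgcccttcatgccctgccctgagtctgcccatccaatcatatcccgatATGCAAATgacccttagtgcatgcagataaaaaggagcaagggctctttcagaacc
Abcg2: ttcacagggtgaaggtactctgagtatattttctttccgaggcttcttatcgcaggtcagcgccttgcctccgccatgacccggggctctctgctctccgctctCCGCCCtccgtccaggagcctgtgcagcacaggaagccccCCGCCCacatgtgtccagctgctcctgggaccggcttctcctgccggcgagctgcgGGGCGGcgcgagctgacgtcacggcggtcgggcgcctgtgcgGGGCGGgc
The Aldh1a1 window held 1 octamer, which began 56 bases before the gene start, and no GC box. The octamer was found in 526 of 32851 mouse windows of this length, or 1.60%, and in none of the other 4 windows of the 2 genes. The Abcg2 window held 4 GC boxes, with 2 on each strand, and was 67.6% G and C. A GC box was found in 10756 windows, or 32.7%. The TATA box TATAAA, found in 12.4% of windows, was in none of the 5 windows of the 2 genes. The windows shown are those with the most matches for each gene. These matches are descriptions of sequence, and binding was not measured. Pou5f1, the gene of the POU factor Oct4, had deposited values of 10.0 in WT, 16.7 in Mst KO, 11.5 in mdx and 12.1 in Oct4 transgenic. It was thus highest in Mst KO, and its part in the values of Aldh1a1 and Abcg2 was not tested.

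The 4 arrays were alike in range. Raw spot intensities ran from 178 to 61071 scanner units over the arrays, and between 126 genes (47.0%) on mdx and 136 genes (50.7%) on WT were called present. A present call is the array software's mark for a spot above background, used as deposited. The rule behind the calls could not be worked out from the header's threshold, and on each array 2 to 4 gene spots called absent were brighter than the dimmest one called present. The normalized value used below is the spot minus the lowest spot of its array, divided by 1 factor per array, and has no unit. Repeated spots of Gapdh, B2m and Ppia, which are bright housekeeping genes, differed by up to 1.13-fold on 1 array. At the dim end the 2 blank spots of an array differed by up to 0.350 in normalized units, on Mst KO, and no other error is known. The marker genes fixed for myoblasts were called present on all arrays, 6 of 6, and had a summed normalized intensity of 39.5 in WT, 16.2 in Mst KO, 13.8 in mdx and 15.6 in Oct4 transgenic. Most of that difference lay in Myod1, with 17.5, 2.65, 2.68 and 1.68 in the same order, and in Cdh15, with 8.67, 1.66, 1.34 and 1.06. The 2 endothelial, 2 epithelial and 1 liver marker on the array were called absent on all of them. Of 5 hematopoietic markers only Cd8a was called present, of 4 pluripotency markers only Pou5f1, and the defining leukocyte gene Ptprc was at 0.505 or below. The 4 mesenchymal markers were all called present and summed to 43.6, 151, 216 and 68.4 in the same order. The part of the makeup of the cultures in the values below was not tested. In RNA of whole cultures, fewer cells that express a gene and less RNA per cell cannot be told apart.

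Abcg2 was the only member called present in every MDSC type. Its normalized intensity was 4.48 in WT, 4.23 in Mst KO, 4.54 in mdx and 7.25 in Oct4 transgenic. The first 3 arrays lay within 1.07-fold of each other, which is inside the 1.13-fold range of repeated spots, and the Oct4 transgenic array lay above them, though not above Mst KO when scaled to 5 housekeeping genes. The raw intensities were 1849, 1723, 1583 and 2363 units, against local backgrounds around the spot of 468, 402, 408 and 503 units. The spot was 3.88 to 4.70 times as bright as its surroundings on the 4 arrays. Its signal thus stood above background by either measure on each array.

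Aldh1a1 was called present on the Oct4 transgenic array and absent on the other 3. Its normalized intensity was 0.654 in WT, 0.399 in Mst KO, 0.316 in mdx and 1.98 in Oct4 transgenic. The 3 absent values were below the lowest gene spot called present on the same array, which was 0.697, 0.753 and 0.898, and the Oct4 transgenic value was above its array's 0.828. In raw units the spot measured 434, 334, 276 and 797, and its local background measured 385, 294, 255 and 333. The spot exceeded its surroundings by 48.4 units in WT, 40.0 in Mst KO, 21.1 in mdx and 465 in Oct4 transgenic. Thus in 3 MDSC types the spot was 1.08 to 1.14 times its surroundings, and in Oct4 transgenic it was 2.40 times. Genes called present on 1 array and no other numbered 4 for WT, 3 for Mst KO, 1 for mdx and 2 for Oct4 transgenic. The last were Aldh1a1 and the neuronal tubulin Tubb3 (1.51 there), which is named after its values were seen. The spot directly above Aldh1a1 on the membrane was the cardiac actin Actc1, with raw intensities of 14965, 2556, 1686 and 1762 units. Actc1 was thus brightest on WT, and on Oct4 transgenic it was close to its mdx value. On Oct4 transgenic the brightest neighbor of Aldh1a1 was Abcg2, at a corner, with 2363 units. In WT, Mst KO and mdx that corner read 1849, 1723 and 1583 units. Actc1 also lay beside Abcg2 and at a corner of Aldh2. The part of these neighbors in the values of the members was not tested, and no spot of any array carried a bleeding flag.

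Aldh2 stayed near the limit of the present calls on all 4 arrays. Its normalized intensity was 0.697 in WT, 0.757 in Mst KO, 0.962 in mdx and 0.625 in Oct4 transgenic, and it was called present on the first 3 and absent on the last. In WT it was itself the dimmest gene spot called present, while 3 gene spots called absent there were brighter. Its raw intensities were 450, 464, 476 and 394 units, between 0.867 and 1.04 times the dimmest present gene spot of the same array. Its local backgrounds were 259, 311, 269 and 278 units, so the spot was 1.74, 1.49, 1.77 and 1.42 times its surroundings. The 2 blank spots of the membrane, named Blank in the file, read 0.532 and 0.533 in WT, 0.383 and 0.733 in Mst KO, 0.452 and 0.708 in mdx and 0.702 and 0.841 in Oct4 transgenic. Aldh2 was above both blank spots in WT, Mst KO and mdx and below both in Oct4 transgenic. Its highest and lowest values differed by 0.337 in normalized units. Among the 119 genes called absent on all 4 arrays the median of this difference was 0.251, and 30 of them differed by at least as much as Aldh2.

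**Figure D1:**
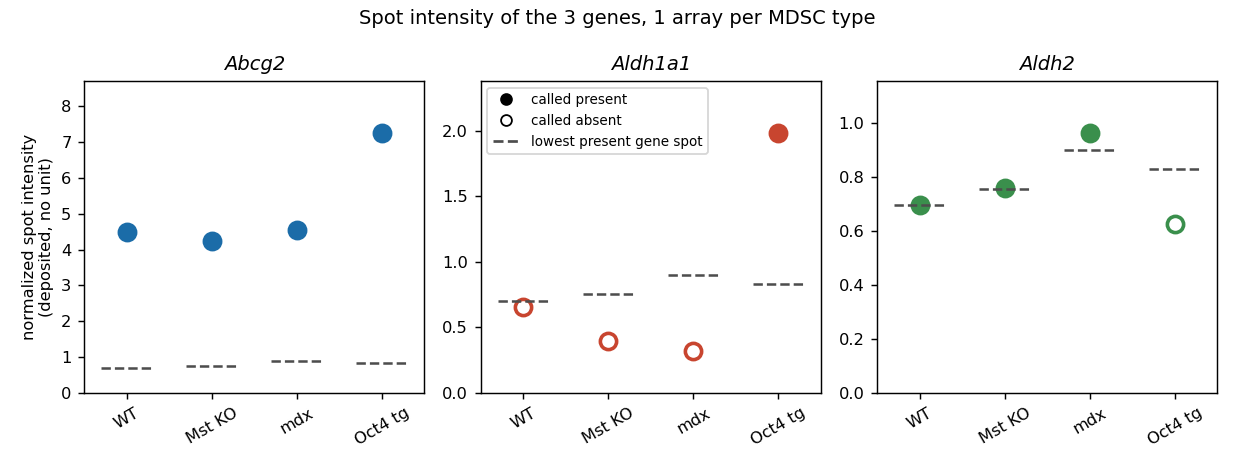
Normalized spot intensity (no unit, 1 array per MDSC type, no error bars because there are no replicates) of Abcg2, Aldh1a1 and Aldh2, with filled points called present, open points called absent and a dashed line at the lowest gene spot called present on that array. Abcg2 stands far above the line on all arrays, Aldh1a1 only on Oct4 transgenic (Oct4 tg, 1.98), and Aldh2 lies near the line throughout.

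**Figure D2:**
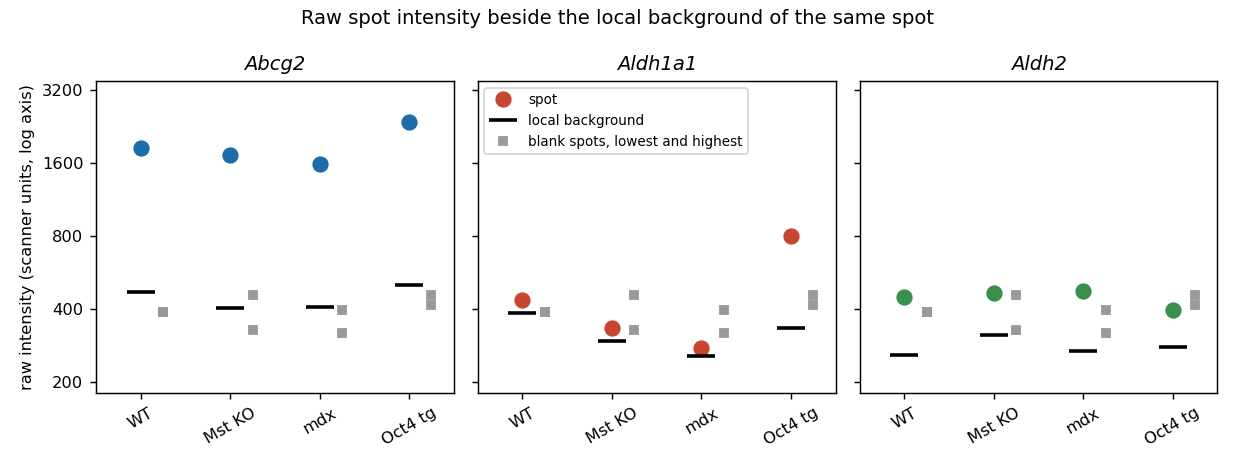
Raw intensity in scanner units on a log axis for the same spots, with the local background around each spot (black bars) and the 2 blank spots of the array (gray squares). The Aldh1a1 spot sits just above its local background in WT, Mst KO and mdx and at 797 against 333 units in Oct4 transgenic.

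The loss of myostatin was compared with WT first. A gene was counted as apart at 2-fold or more among the genes that either array of the pair called present. Neither of the 2 members tested was apart between Mst KO and WT, where 24 of 144 genes (16.7%) were. The log2 ratio of Abcg2 was −0.08, a 1.06-fold lower value in Mst KO, and that of Aldh2 was 0.12, a 1.09-fold higher value. Both differences were smaller than the 1.13-fold range of repeated bright spots. Under other scalings or backgrounds the ratio of Abcg2 turned positive in 5 of 7 settings, up to 0.26, and that of Aldh2 turned to −0.30 with local background, so neither has a settled direction. Aldh1a1 was absent on both arrays and is given no fold.

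The dystrophic mdx cells were set against WT in the same way. Again neither of the 2 members tested was apart, where 31 of 143 genes (21.7%) were. Abcg2 had a log2 ratio of 0.02, and it was zero or negative in 3 of 7 settings. Aldh2 had a log2 ratio of 0.47, a 1.38-fold higher value in mdx, and stayed between 0.29 and 0.74 in the 7 other settings. The difference was 0.265 in normalized units. The 2 blank spots, which are about as dim, differed by 0.256 on mdx and by 0.00104 on WT. On Mst KO, which is not in this pair, they differed by 0.350. The difference in Aldh2 was thus about as large as the spread of blank spots on mdx, and far larger than that on WT. With 2 blank spots per array this spread is poorly known. Aldh1a1 was absent on both arrays.

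In Oct4 transgenic over WT, Aldh1a1 was apart, and Abcg2 and Aldh2 were not. Of 144 genes, 31 (21.5%) were apart in either direction and 19 (13.2%) were higher. Aldh1a1 entered this comparison only through its present call on Oct4 transgenic, so its direction was largely set beforehand. In Mst KO and mdx it was called absent, as in WT, and could not be counted, so the types cannot be contrasted by it. Aldh1a1 was at least 2.84-fold higher in Oct4 transgenic when the dimmest present spot of WT stood in for its absent value, and the log2 ratio of the values as measured was 1.60. This limit holds for the deposited values. Without background subtraction, with raw values scaled to 5 housekeeping genes, the log2 ratio fell to 0.73, under the 2-fold threshold. With the local background of each spot it rose to 3.58, a value that rests on the 48.4 units of the WT spot. Abcg2 had a log2 ratio of 0.70, a 1.62-fold higher value that was the 23rd highest of 144. Abcg2 stayed positive in all 7 settings, from 0.21 with raw values scaled to 5 housekeeping genes to 0.75 with local background. Aldh2 was called absent on Oct4 transgenic, and its WT value of 0.697 lay under the 0.828 of the lowest present spot there, so it has no fold. The balance of the whole array moved with the scaling, from 19 genes higher and 12 lower as deposited to 11 higher and 24 lower with 5 housekeeping genes.

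**Figure D3:**
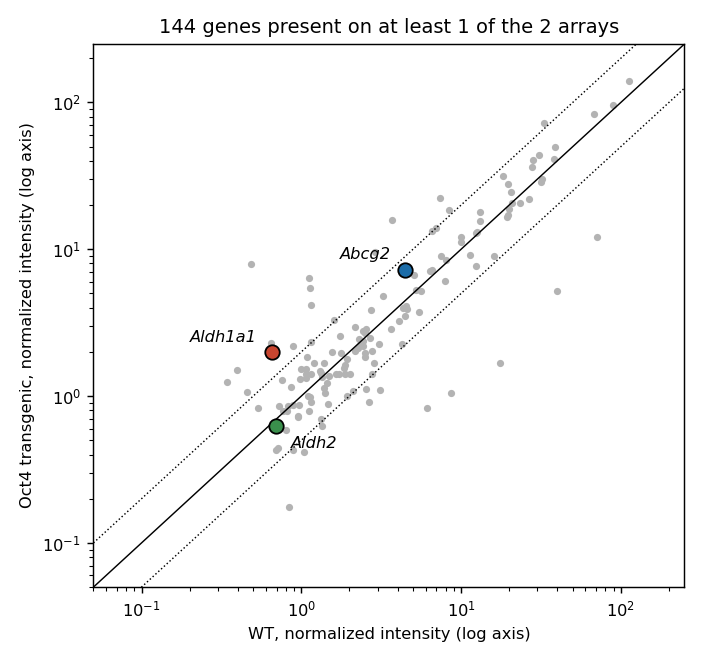
Normalized intensity on the Oct4 transgenic array against WT, both on log axes, for the 144 genes called present on at least 1 of the 2 arrays (gray) with the 3 members in color. The solid line marks equal values and the dotted lines 2-fold. Aldh1a1 lies above the upper dotted line, Abcg2 between the solid and the upper dotted line, and Aldh2 just under the solid line.

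The Oct4 transgenic array was also compared with each of the other 2 arrays, a choice made after the values were seen. These comparisons share the Oct4 transgenic array and are not independent. Aldh1a1 was already known to be called present on Oct4 transgenic and absent on both others. Its direction was thus set beforehand, and the comparisons only describe its size. Against Mst KO, where 25 of 142 genes (17.6%) were apart, Aldh1a1 was at least 2.63-fold higher by the lowest present value, with a log2 ratio of 2.31 as measured. Against mdx, where 26 of 137 genes (19.0%) were apart, it was at least 2.21-fold higher, with a log2 ratio of 2.65 as measured. Both measured ratios have an absent value below the line. Raw values scaled to 5 housekeeping genes brought the ratio over Mst KO to 0.75, under 2-fold, and kept that over mdx above 2-fold. Abcg2 had log2 ratios of 0.78 over Mst KO and 0.68 over mdx, and with the scalings to 5 housekeeping genes the first of these turned to −0.03, or −0.05 without background subtraction. The direction for Abcg2 over Mst KO therefore depended on the scaling, and with Gapdh alone the log2 ratio was 0.27. Of the 5 housekeeping genes, B2m varied most, with 33.0 in WT, 22.5 in Mst KO, 36.1 in mdx and 72.2 in Oct4 transgenic. The part of B2m in the turn of Abcg2 was not tested. Aldh2 has no fold over Mst KO for the same reason, and its limit against mdx was 1.16-fold lower in Oct4 transgenic. That limit rests on the lowest present spot of Oct4 transgenic (0.828), which lay between the 2 blank spots there (0.702 and 0.841). No difference in Aldh2 is read from it.

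**Figure D4:**
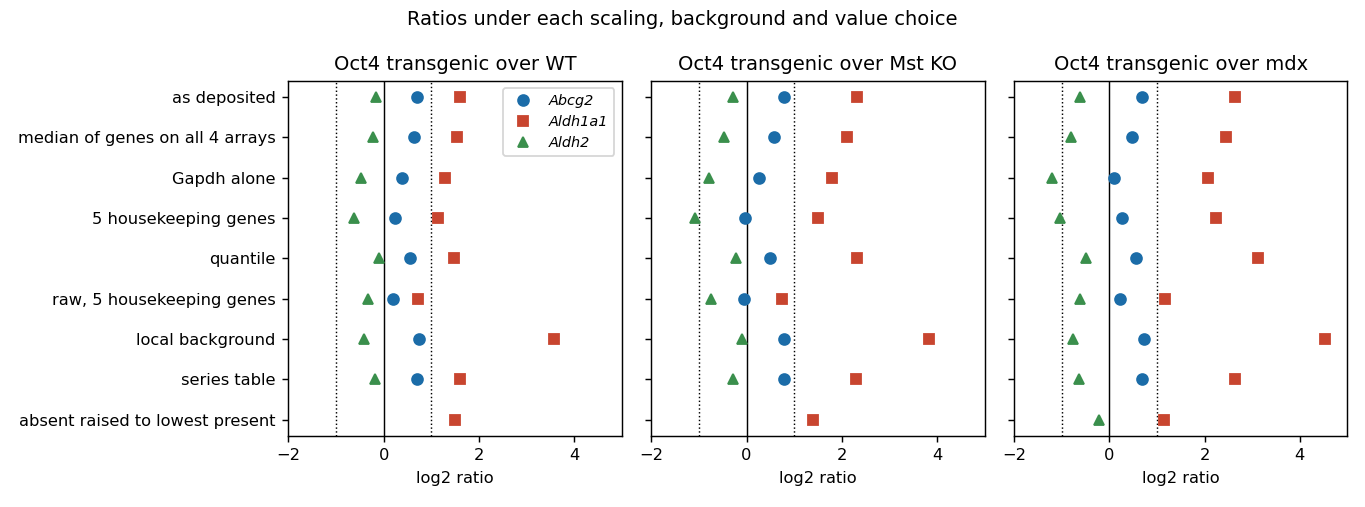
Log2 ratio of Oct4 transgenic over WT, Mst KO and mdx for Abcg2 (circles), Aldh1a1 (squares) and Aldh2 (triangles) under each choice of scaling, background and values, with dotted lines at 2-fold. Aldh1a1 is right of the zero line in every row, between 0.73 and 3.58 over WT. Abcg2 lies at or near zero over Mst KO in the rows scaled to 5 housekeeping genes, and the ratios of Aldh2 over WT and Mst KO rest on an absent Oct4 transgenic value and have no bound as deposited.

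Genes with the nearest profile to each member were found by the root mean square difference of centered log2 intensities over the 4 arrays, among 148 genes called present on at least 1 array. For Abcg2 they were Ptcra, the pre-T-cell receptor alpha chain (0.05), Ctnnb1, the beta-catenin of junctions and Wnt signaling (0.07), and Hsp90ab1, a chaperone and a housekeeping gene of the array (0.07). Hsp90ab1 measured 30.8 in WT, 26.8 in Mst KO, 30.1 in mdx and 43.8 in Oct4 transgenic. Abcg2 and this housekeeping gene were thus both highest on Oct4 transgenic in the deposited values, as was Gapdh, with 113, 97.7, 93.2 and 139.

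For Aldh1a1 the nearest gene was Cdh2, N-cadherin, at 0.21. Cdh2 measured 6.55 in WT, 3.05 in Mst KO, 2.54 in mdx and 13.3 in Oct4 transgenic, and was called present on all arrays. Like Aldh1a1 it was highest on Oct4 transgenic, and since the other 3 values of Aldh1a1 are absent calls, the likeness over them has no weight. The small GTPase gene Rhob (0.42) and Snai1, a zinc finger repressor of E-cadherin (0.51), came next and were farther from it. For Aldh2 the nearest genes were the corepressor gene Ctbp2 (0.09), the Deltex gene Dtx2 (0.13) and the GTPase gene Rac1 (0.14). Since Aldh2 lay near the limit of the present calls on all arrays, this likeness has little weight. The 3 members were not near each other, since Abcg2 was 14th for Aldh1a1, with a difference of 0.74, and Aldh2 was 115th, with 1.22. With 4 arrays, these are descriptions of likeness only.

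**Figure D5:**
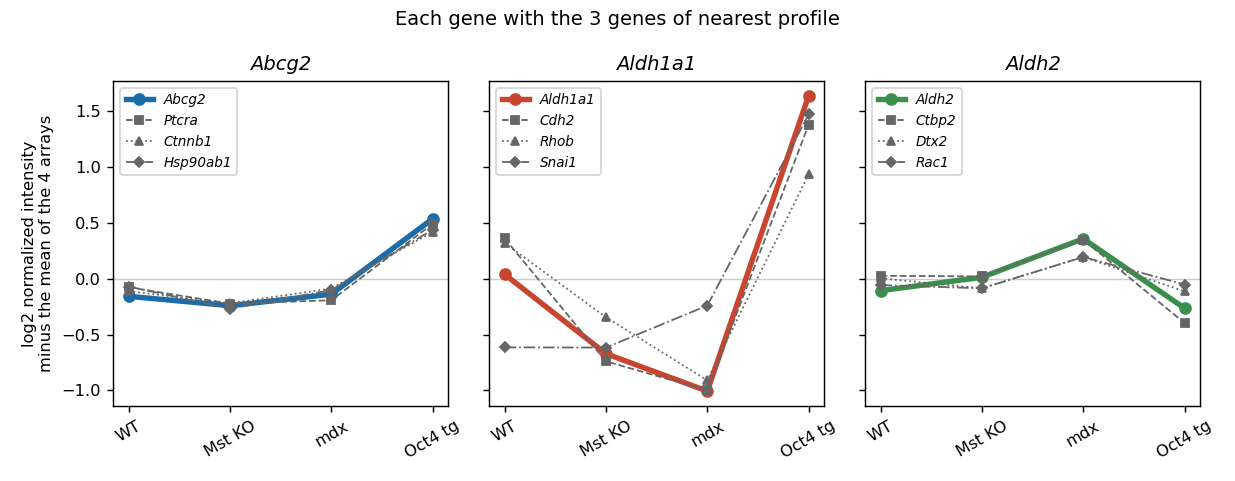
Log2 normalized intensity minus the mean of the 4 arrays, by MDSC type, for each member (colored line) and the 3 genes nearest to it (gray lines). In the deposited values Abcg2 and its neighbors vary little over 3 arrays and are higher on Oct4 transgenic. Scaling to 5 housekeeping genes turns that order for Abcg2 over Mst KO. Aldh1a1, called absent on the first 3 arrays, and Cdh2 are highest on Oct4 transgenic. Aldh2 and its neighbors are highest on mdx, with Aldh2 near the limit of the present calls throughout and called absent on Oct4 transgenic.

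Other genes used to isolate stem cells were taken as a list, and 12 of 24 had a spot. Cd44, an adhesion receptor for hyaluronan, was called present on all arrays, with 1.60 in WT, 1.81 in Mst KO, 1.15 in mdx and 3.31 in Oct4 transgenic. Like Abcg2 and Aldh1a1 it was highest on Oct4 transgenic in the deposited values, which for Abcg2 depended on the scaling. Cd44 depends on the scaling too. With 5 housekeeping genes, log2 ratios of Oct4 transgenic move by −0.46 over WT and −0.80 over Mst KO. That takes Cd44 under 2-fold over WT and close to its Mst KO value. Thy1, a surface glycoprotein of fibroblasts and other cells, had 0.456, 0.885, 0.529 and 1.07 and was called present in Mst KO and Oct4 transgenic. Mme, the membrane metalloendopeptidase, had 0.148, 0.818, 2.08 and 0.118, and was called present in Mst KO and mdx. The cadherin gene Cdh15 and Ncam1 were called present on all arrays and the intermediate filament gene Nes on WT only. Prom1, Kit, Cxcr4, Ptprc, Kdr and Fut4 were called absent on all 4. In Mst KO over WT, 1 of 6 tested genes was higher (Mme) and 2 were lower (Nes and Cdh15), with a median log2 ratio of −0.04 against −0.04 over all genes, of which 6.94% were higher and 9.72% lower. In mdx over WT the same genes made 1 higher and 2 lower of 5, with a median of −0.47 against −0.03 over all genes, of which 8.39% were higher and 13.3% lower. In Oct4 transgenic over WT, Cd44 and Thy1 were higher and Cdh15 was lower of 5, with a median of −0.14 against −0.01 over all genes, of which 13.2% were higher and 8.33% lower. With so few genes the counts are a description, and Mme, Nes and Thy1 were absent on 1 array of each pair where they were counted. Nes in WT (0.699) lay under the lowest present spot of Mst KO (0.753) and of mdx (0.898), so it has no fold. Mme in Mst KO (0.818) and Thy1 in Oct4 transgenic (1.07) lay within 2-fold of the lowest present spot of WT (0.697). The lists of 22 genes of retinoid and aldehyde metabolism and of 10 further ABC transporters had no spot among those analyzed, so Abcg2, Aldh1a1 and Aldh2 stood without their closest relatives.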

How the data were processed

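RNA of MDSCs was labeled with biotin and hybridized to SABiosciences oligo arrays by the supplier, as labeled cRNA in the labels and as cDNA in the study's methods. The authors deposited spot intensities, raw and normalized, with local backgrounds, present or absent calls and bleeding flags for 288 spots. Per the file headers, the lowest value was the background and the threshold of the calls was 1.5. The study's methods name housekeeping genes for normalization, whereas the deposited intensity was found to be each spot less the array's lowest spot, scaled by the average of the 144 spots in the middle of the sorted values. The columns that hold the authors' ratios between arrays were not used.

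Spots of a gene were averaged and log2 ratios were taken with no test. The precision is limited by the number of arrays. The members and lists were chosen with earlier results of these data known. Named genes are the members, the 3 genes of nearest profile for each, list members on the array and 5 housekeeping genes. Tubb3 and the neighboring spot Actc1 were added after their values were seen. Scaling, background, values, filter and threshold were varied, in 8 ways for the members and 12 for counts. Lower limits use the lowest present value. The motif search covered 250 bases and both strands. The 2-fold counting was tested on simulated data, and the present or absent calls were not. Different probes were compared within an array only to place a spot against the limit of the present calls. Myostatin is not analysed here. Python 3.11.15, numpy 2.4.6, pandas 2.3.3 and matplotlib 3.10.9 were used.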

Additional observations from a re-analysis of the deposited data

How the results depend on the processing

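Of the members, Aldh1a1 stayed higher on Oct4 transgenic under every setting run, and fell under the 2-fold threshold with raw values scaled to 5 housekeeping genes, at a log2 ratio of 0.73 over WT and 0.75 over Mst KO. Aldh2 passed 2-fold in Oct4 transgenic over Mst KO, at −1.08 with 5 housekeeping genes, and over mdx, at −1.20 with Gapdh alone and −1.04 with 5 housekeeping genes. The Oct4 transgenic value of Aldh2 is called absent, so neither ratio is read as a difference. The one over Mst KO has no bound in the deposited values. Abcg2 stayed under 2-fold in all settings. The cause was not tested. Scaling to 5 housekeeping genes moved the median of all ratios by 0.34 in Mst KO over WT, by −0.46 in Oct4 transgenic over WT and by −0.80 in Oct4 transgenic over Mst KO.

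The count of genes apart was 24 in Mst KO over WT, and became 68 with no filter on absent genes, 15 for genes present on both arrays, 50 at 1.5-fold and 15 at 3-fold. In mdx over WT it was 31, and became 19 with raw values scaled to 5 housekeeping genes, 85 with no filter, 17 for genes present on both, 50 at 1.5-fold and 19 at 3-fold. In Oct4 transgenic over WT it was 31, and became 74 with no filter, 48 at 1.5-fold and 17 at 3-fold. In Mst KO over WT, 10 genes were higher and 14 lower as deposited, and 18 and 9 with 5 housekeeping genes. In mdx over WT they were 12 and 19, and 18 and 13 with Gapdh alone. Aldh1a1 was absent on both arrays in Mst KO over WT and mdx over WT and has no ratio there. No paired analysis was possible because there was 1 array per MDSC type. No replicate could be left out for the same reason. Nearness to the limit of the present calls limits Aldh2, which was at most 1.04 times the dimmest present spot of any array. The 3 absent values of Aldh1a1 lay below that limit.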
